A study of Homo sapiens with 4 samples.

Results

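The sites described here are positions of protein-RNA contact that lie deep inside first introns, far from any exon, in iCLIP lists of the translation inhibitor PDCD4 and of an IgG control. A listed site was counted as a member when it fell in no annotated exon on its strand, lay within the first intron of the transcript with the longest coding sequence of the gene it was labelled with, and was more than 100 nt from both ends of that intron. The PDCD4 list gave 17985 members of 158922 listed sites (11.3%, 95% Wilson interval 11.2% to 11.5%) and the IgG list 19275 of 111361 (17.3%, 17.1% to 17.5%), together 37260 of 270283. The sites deep in later introns of the same transcripts, with which they were compared, numbered 48238 and 44619. First introns were defined on GENCODE release 44 (GRCh38) without use of site scores, and members were taken at any score from the deposited lists.

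The cells were MCF10A, an established and untransformed breast epithelial line with the genotype given as WT, grown in medium with horse serum, epidermal growth factor, insulin, hydrocortisone and cholera toxin. No label gives any further treatment or a time point. After UV cross-linking, 2 replicates were immunoprecipitated with PDCD4 antibody and 2 served as IgG control, and the authors deposited 1 merged list for each group, so there is 1 value per group and no spread between replicates. All intervals below therefore cover counting error only, and no p-value was computed between the lists. A site is 1 nt wide and its score is the number of cDNAs that ended there.

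An intron is transcribed with the exons around it and removed by splicing in the nucleus. A contact deep inside an annotated intron is therefore usually read as contact with precursor RNA, which position alone does not establish. First introns are usually the longest of a gene, lie next to the promoter, are often rich in regulatory DNA near their start, and are the first to be exposed on the nascent transcript. PDCD4 is best known for holding the RNA helicase eIF4A away from translation initiation in the cytoplasm, but it also shuttles into the nucleus.

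As examples of high sites only, the RNA around some of the highest member sites is printed 5′ to 3′. Each window is 30 bases read from GRCh38, with the site and the 2 bases after it in capitals. High PDCD4 sites lay in the first introns of PID1, an adaptor of lipoprotein receptor signalling, with 13 cDNAs (chr2:229180990-229181019, minus strand), NEK6, a mitotic kinase, with 10 (chr9:124289074-124289103, plus strand), GAREM1, an adaptor of growth factor signalling, with 9 (chr18:32454470-32454499, minus strand), JARID2, a partner of the Polycomb repressive complex, with 9 (chr6:15320788-15320817, plus strand) and AGRN, which encodes the matrix proteoglycan agrin, with 8 (chr1:1021524-1021553, plus strand).
PID1: agaguucucuuuucuUUGugaagggcaggg
NEK6: gggcuuaagugauccUUCcaucucagccuu
GAREM1: auuuggcuauacuacUUAaucagaaggugu
JARID2: gagaccaaucuauauUAUuuucagccaugg
AGRN: ucucccggcuuuguuCUCaggggagugcgu
All 5 sites are followed by a pyrimidine or an adenine, and 4 of the 5 start with uracil.

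High IgG sites among the members lay in FGF2, which encodes a fibroblast growth factor, with 9 cDNAs (chr4:122843875-122843904, plus strand), NHS with 8 (chrX:17438960-17438989, plus strand), SEC23IP, a component of endoplasmic reticulum exit sites, with 8 (chr10:119894566-119894595, plus strand) and ANPEP, the cell-surface aminopeptidase N, with 7 (chr15:89808617-89808646, minus strand).
FGF2: ugagucguaauuguuCUGcuaguauaggau
NHS: aguaaugcccuucacCAUcacugacaccuc
SEC23IP: guagauguuuguugaAUGagugaaaggaug
ANPEP: cucagaagaggcaggCACuucuucuggggg

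Over all members the bases at the site were far from those of the surrounding intron. Among the 17985 PDCD4 sites, uracil stood at the site in 51.2%, at the next position in 53.0% and at the one after in 51.3%, against 28.3% in flanking RNA 40 to 60 nt away. Guanine was nearly absent from the position after the site, where 3.48% of PDCD4 members carried it against 24.6% in the flanks. The IgG members had a like profile, with slightly more uracil, namely 53.9% uracil at the site, 55.9% at the next position and 3.42% guanine there. Later introns did not stand apart either, since the PDCD4 sites there carried uracil at the site in 50.7% and guanine at the next position in 3.48%.

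**Figure D1:**
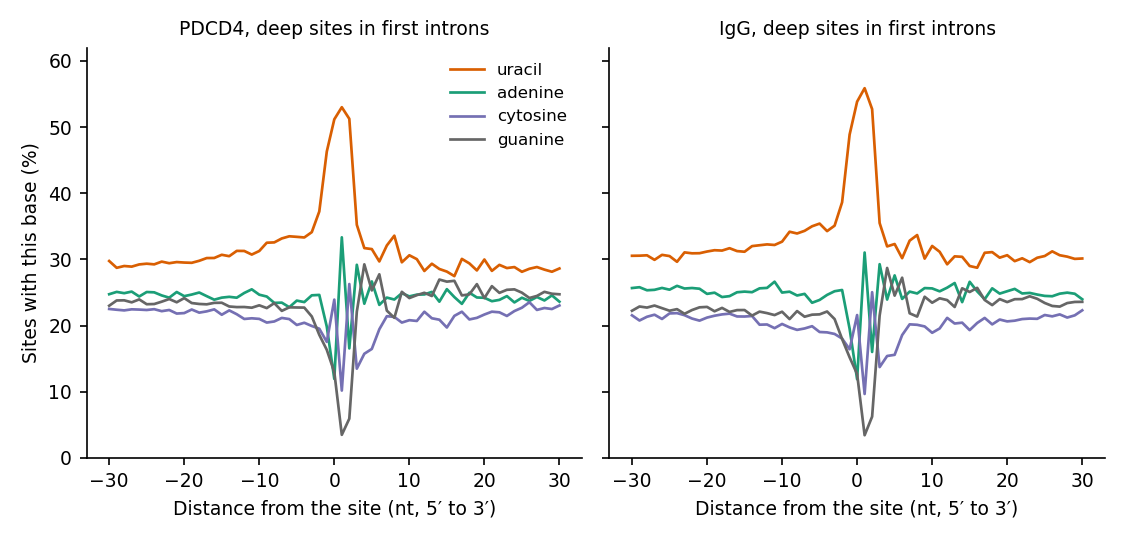
The share of deep first-intron sites (in %) that carry each base is plotted against the distance from the site in nt, for 17985 PDCD4 sites (left) and 19275 IgG sites (right). In both lists uracil peaks above 50% at the site and the 2 bases after it, and guanine drops to under 4% at the next position.

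The most frequent start of a member site was UUU (the site and the next 2 bases), found at 21.1% of PDCD4 members and 3.39% of flanking positions. For IgG the shares were 22.7% and 3.68%. The triplets CAU and UUC followed, each at 6.42% of PDCD4 members, against 1.58% and 1.88% in their flanks. A run of 5 uracils within 10 nt of the site was present at 19.8% of PDCD4 and 20.6% of IgG members, against 4.71% and 5.34% of flanking windows of the same length. The preference for uracil was thus present with the antibody against PDCD4 and with the control antibody, and the part that UV chemistry or the iCLIP protocol has in it was not tested. The GC content within 50 nt of the site differed slightly between the lists, with largely overlapping spreads. The median was 44.6% for PDCD4 members (quartiles 36.6% and 53.5%) and 42.6% for IgG members (35.6% and 50.5%). In later introns the medians were 43.6% and 40.6%. Members with high scores differed from members as a whole. The 107 PDCD4 members with scores greater than 5 had uracil at the site in 44.9%, a run of 5 uracils in 12.1% and a median GC content of 50.5%. For the 98 such IgG members the values were 50%, 9.18% and 49.5%.

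Members were low in score. PDCD4 members summed to 44920 cDNAs, a mean score of 2.50, and IgG members to 47251, a mean of 2.45. The mean in later introns was 2.47 for PDCD4 and 2.43 for IgG. A score of 2 was the most frequent, at 51.4% of PDCD4 and 56.9% of IgG members. Scores greater than 5, the threshold of the study's methods, were reached by 107 PDCD4 members (0.595%, Wilson interval 0.493% to 0.718%) and 98 IgG members (0.508%, 0.417% to 0.619%). In later introns the shares were 0.589% and 0.444%, and among all listed sites outside deep introns they were 2.12% and 0.994%. First and later introns thus had intervals that overlapped in both lists, whereas sites outside deep introns exceeded the threshold more often by more than counting error. The highest member score was 13 for PDCD4 and 9 for IgG.

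PDCD4 members were spread over 4118 first introns and IgG members over 4144. Of the 10485 first introns with deep positions in genes labelled in either list, 5405 (51.5%) held a member of at least 1 list and 2857 held members of both, which is 69.4% of the PDCD4 and 68.9% of the IgG introns. The 2 lists shared 27 member positions (0.150% of PDCD4 members), and 2.39% of PDCD4 members lay within 20 nt of an IgG member. In later introns these shares were 0.166% and 2.30%, and over all listed sites 0.454% and 6.95%, so deep first introns were close to deep later introns and below the lists as a whole. The methods describe removing IgG crosslink sites from the PDCD4 replicates, and the part of that step in the number of shared positions was not tested. The median was 2 sites per first intron in each list, and the 100 introns with the most sites held 25.1% of PDCD4 and 23.8% of IgG members. At the edge of the definition, first introns held 45 PDCD4 and 41 IgG sites 81 to 100 nt from the nearer intron end, and 62 and 45 sites at 101 to 120 nt.

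Per available position, first introns were the most densely listed introns in both lists. PDCD4 members occurred at 102 sites per Mb of deep first intron (counting interval 101 to 104), against 87.9 per Mb in later introns (87.1 to 88.7). IgG members occurred at 109 per Mb (108 to 111), against 81.3 (80.6 to 82.1). Beyond the first intron the lists took different courses. PDCD4 density was 86.2 per Mb in second introns, between 83.4 and 83.7 in introns 3 to 5, and 91.6 in introns beyond intron 10. IgG density was 91.1 in second introns, between 80.0 and 83.7 in introns 3 to 5, and 73.4 beyond intron 10. In introns 6 to 10 the densities were 91.1 for PDCD4 (89.4 to 92.7) and 80.7 for IgG (79.2 to 82.3). PDCD4 sites were thus denser than IgG sites from intron 6 onwards, and in first and second introns the order was the opposite. In introns 3 to 5 the intervals of the lists overlapped. These densities were not scaled to the size of the lists.

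**Figure D2:**
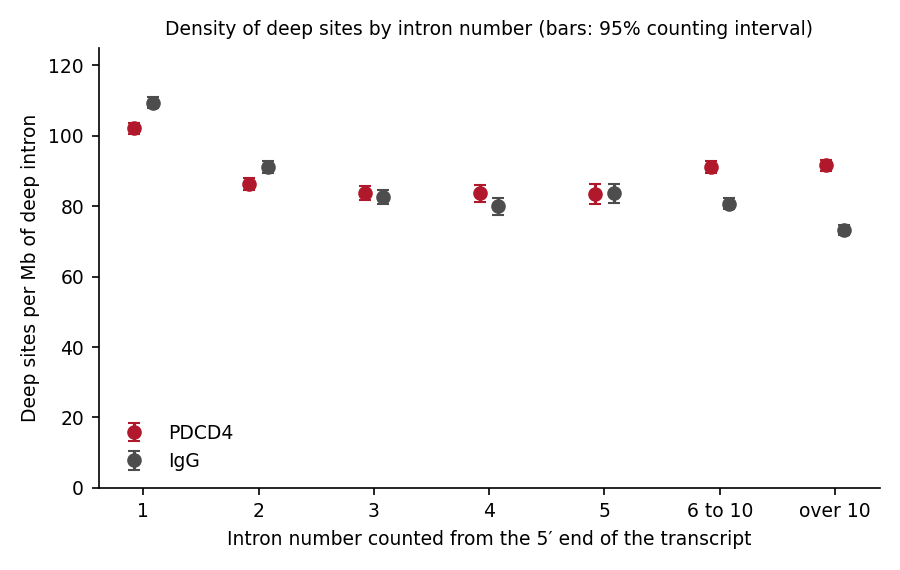
Deep sites per Mb of deep intron (y axis) are plotted for introns grouped by their number from the 5′ end (x axis), with 95% counting intervals, for PDCD4 and IgG. Both lists are highest at the first intron (102 and 109 per Mb), and beyond intron 10 PDCD4 (91.6) lies above IgG (73.4).

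First introns are long, and density was lowest in the longest introns, so introns were also compared within length classes. First introns with members had a median length of 15384.5 nt for PDCD4 and 16559.5 nt for IgG, against 4836 and 6104.5 nt for later introns with sites. In introns of 1 to 2 kb, PDCD4 density was 257 per Mb in first and 170 in later introns. In introns of 10 to 20 kb it was 136 and 90.9, and above 100 kb 60.6 and 41.2. For IgG the same classes gave 136 and 99.9, then 132 and 91.0, and then 69.2 and 47.8. In each of the 7 classes from 1 kb upwards the first introns were denser in both lists with intervals that did not overlap, and under 1 kb the intervals overlapped in both lists (188 against 205 per Mb for PDCD4, 110 against 101 for IgG).

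These densities compare different genes, because long and short transcripts do not contribute equally to each class. When the sites of each transcript were instead spread evenly over its own deep positions, 17762 PDCD4 sites were expected in first introns and 17314 observed, a log2 ratio of -0.04 (-0.06 to -0.02). For IgG 17033 were expected and 18534 observed, a log2 ratio of 0.12 (0.10 to 0.14). PDCD4 members were thus slightly fewer and IgG members more numerous than even placement within the same transcripts gives, a difference of -0.16 (-0.19 to -0.13). For PDCD4 this rested on transcripts whose first intron was 10 to 50 kb long (-0.10, -0.13 to -0.07), since shorter and longer first introns gave intervals that covered 0 (0.07 under 2 kb, -0.0014 at 2 to 10 kb and 0.02 over 50 kb). Restricting both kinds of intron to 10 to 50 kb gave -0.01 (-0.05 to 0.04) for PDCD4 and 0.10 (0.06 to 0.14) for IgG. Among transcripts with at least 20 deep sites, 295 of 696 had more PDCD4 members than even placement and 354 of 709 more IgG members.

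The sign of the PDCD4 value depended on what was compared. Against second introns alone it was 0.02 for PDCD4 and 0.03 for IgG, a difference of -0.01 (-0.04 to 0.02), so the lists were not distinguishable there. Over transcripts that held at least 1 member, a choice that raises the number of members in first introns, it was 0.12 and 0.24, and the difference was -0.12 (-0.15 to -0.09).

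Within first introns, the members leaned towards the 5′ end. The part of each intron's deep positions before its midpoint held 10494 PDCD4 members and the part after it 7491, a log2 ratio per available position of 0.51 (0.46 to 0.55). The IgG list had 11633 and 7642, a ratio of 0.62 (0.58 to 0.67), so the slope was present in both lists and smaller for PDCD4 by 0.12 (0.06 to 0.18). Within length classes this difference was clear only under 2 kb (-0.80, -1.25 to -0.34), and in the 3 classes from 2 kb upwards it lay between -0.08 and -0.06 with intervals that covered 0. Over all lengths, later introns leaned the same way but less, with ratios of 0.31 among PDCD4 sites (0.29 to 0.34) and 0.35 among IgG sites (0.33 to 0.38). At like length this gap was small for PDCD4, where first introns exceeded later ones by 0.03 to 0.04 in the 3 classes from 2 kb upwards, each with an interval that covered 0. For IgG the excess was 0.12 (-0.01 to 0.25) at 2 to 10 kb, 0.13 (0.06 to 0.21) at 10 to 50 kb and 0.09 (0.0033 to 0.18) over 50 kb.

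Dividing each intron's deep positions into 10 equal bins gave a decline along the intron. From the bin at the 5′ end to that at the 3′ end, the log2 ratio of observed to evenly placed PDCD4 members went from 0.52 to -0.42, and that of IgG members from 0.48 to -0.66. The later introns went from 0.35 to -0.25 in PDCD4 and from 0.31 to -0.35 in IgG. In the last bin of first introns PDCD4 members were denser relative to even placement than IgG members, with intervals that did not overlap (-0.50 to -0.35 and -0.74 to -0.57).

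**Figure D3:**
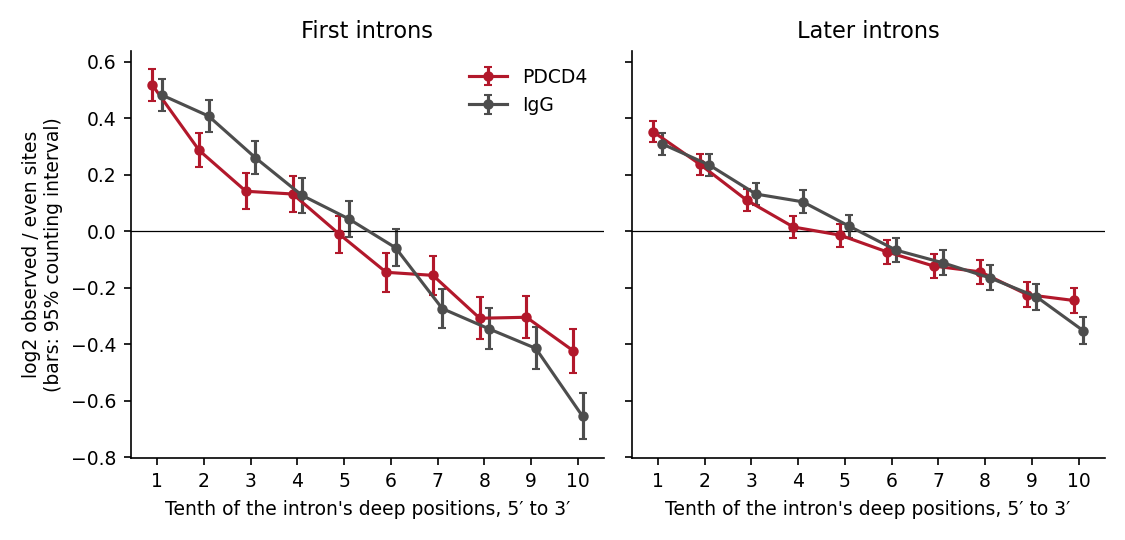
The log2 ratio of observed to evenly placed sites (y axis) is plotted for each of 10 equal bins of an intron's deep positions from 5′ to 3′ (x axis), for first introns (left) and later introns (right), with 95% counting intervals. PDCD4 falls from 0.52 to -0.42 and IgG from 0.48 to -0.66 in first introns, which are longer than the later introns on the right.

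From 2 kb upwards the slope grew with intron length in first and later introns alike. In first introns over 50 kb the 5′ over 3′ ratio was 0.83 for PDCD4 and 0.90 for IgG, beside 0.78 and 0.81 in later introns of that length. At 10 to 50 kb it was 0.39 and 0.47 in first and 0.36 and 0.34 in later introns, and at 2 to 10 kb 0.19 and 0.25 in first and 0.16 and 0.13 in later introns. In first introns below 2 kb the lists lay on opposite sides of 0, with 197 PDCD4 members in the 5′ part and 246 in the 3′ part (-0.28, -0.55 to -0.01) against 139 and 100 IgG members (0.51, 0.14 to 0.88). In later introns of that length the ratios were 0.03 and 0.10. Counted in nucleotides from the 5′ splice site, PDCD4 members exceeded even placement most at 501 to 1000 nt (log2 ratio 0.30) and 1001 to 2000 nt (0.31). They were below it at 20001 to 50000 nt (-0.06, -0.10 to -0.01) and 50001 to 100000 nt (-0.15), and furthest below beyond 100000 nt (-0.75). IgG members behaved alike, with 0.33, 0.34, -0.07, -0.28 and -0.75 at these distances. In later introns the ratio for PDCD4 at 1001 to 2000 nt was 0.05. Later introns with PDCD4 sites were shorter (median 4836 nt against 15384.5 nt), so this distance falls in a different part of them. The 2 values were not compared at like length. The median distance from the 5′ splice site was 11469 nt for PDCD4 and 13340 nt for IgG members. First introns before the start codon held 104 PDCD4 members per Mb and those within the coding sequence 101, with overlapping intervals, whereas IgG members were denser before the start codon (116 per Mb, 113 to 119) than within the coding sequence (105, 104 to 107). The 20 first introns after a stop codon held 398 PDCD4 and 719 IgG members per Mb, over 0.249 Mb in all. The TWIST2 intron alone held 72 of the 99 PDCD4 and 161 of the 179 IgG members of this class. These densities therefore rest largely on 1 intron and do not describe the class.

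The first introns with the most cDNAs were largely the same in both lists and belonged to long genes. ADARB2, a member of the ADAR family of RNA-editing proteins, led both with 653 PDCD4 and 596 IgG cDNAs in a first intron of 357890 nt (chr10:1379161-1737050, minus strand). Of its PDCD4 sites 233 lay in the 5′ part and 31 in the 3′ part of the intron, and of its IgG sites 210 and 35. RXRA, a retinoid X receptor, followed with 416 PDCD4 and 252 IgG cDNAs, and its PDCD4 sites were spread evenly, with 68 in each part. EGFR, the receptor for the growth factor in the medium, had 367 PDCD4 and 382 IgG cDNAs in a first intron of 122920 nt (chr7:55019366-55142285, plus strand).

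SH3RF3, an SH3-domain ubiquitin ligase, had 374 PDCD4 and 260 IgG cDNAs, and the adaptor gene CMIP 352 and 348. NAV2, a microtubule-associated neuron navigator, had 313 and 176, a log2 ratio of shares of 0.76 (0.49 to 1.02). EXT1, a glycosyltransferase of heparan sulphate synthesis, had 239 and 260. HPCAL1, a neuronal calcium sensor, and TWIST2, a basic helix-loop-helix transcription factor, lay on the IgG side. HPCAL1 had 301 PDCD4 and 501 IgG cDNAs (-0.81, -1.01 to -0.60), and TWIST2 175 and 479 (-1.52, -1.77 to -1.27). The later introns of HPCAL1 leaned further to IgG, with 174 and 654 (-1.98, -2.22 to -1.74). The TWIST2 intron follows the stop codon and is the only intron of its transcript, so it has no later intron to compare. A large sum of cDNAs in an intron can come from more precursor RNA, more contacts per RNA or other RNA of the same stretch. These cannot be told apart here.

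To compare the lists intron by intron, the cDNAs of each intron were taken as a share of all deep intronic cDNAs of the list, with a pseudocount of 1. Of 3100 introns with at least 20 cDNAs over both lists, 1127 were first introns. The share was at least 2-fold higher in the PDCD4 list for 175 first introns (15.5%), where the background over all introns was 19.2%, and at least 2-fold higher in the IgG list for 256 (22.7%), where the background was 21.6%. Among later introns 21.3% and 21.0% passed. First introns passed in the PDCD4 direction less often than the background and in the IgG direction about as often. The counts moved with the scaling, to 98 (8.70%) and 463 (41.1%) when shares of all listed cDNAs were taken, where 14.3% and 36.3% of later introns passed. The median log2 ratio was -0.28 in first introns, with quartiles of -0.92 and 0.49, and -0.07 in later introns. With numbers of sites in place of cDNAs, 53 and 52 of 379 first introns passed (13.98% and 13.72%), close to later introns in the PDCD4 direction (15.3%) and below them in the IgG direction (16.3%).

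**Figure D4:**
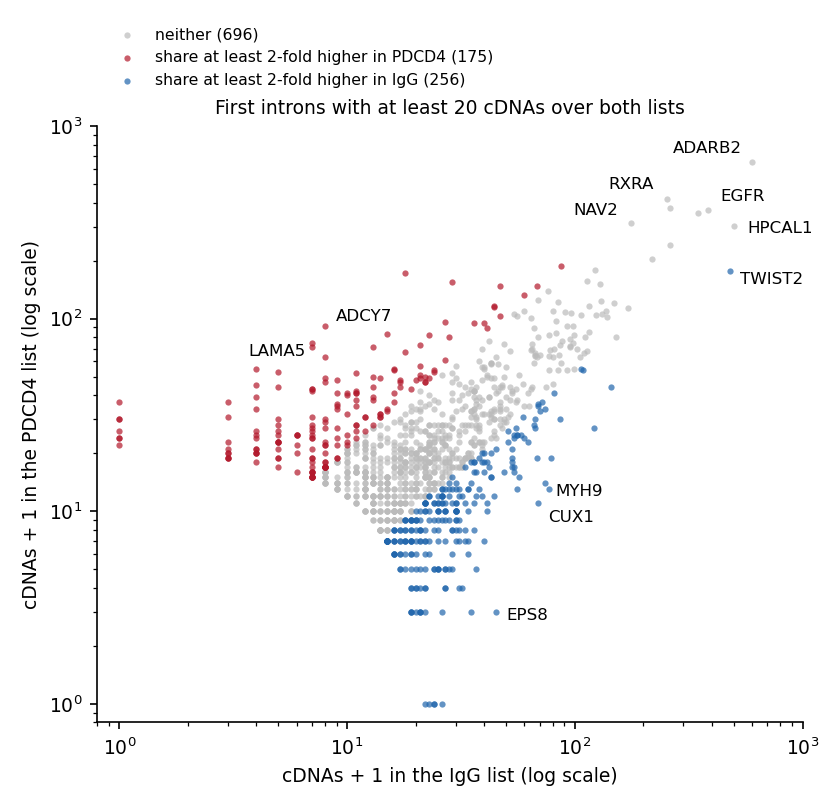
Each point is 1 of the 1127 first introns with at least 20 cDNAs, with cDNAs plus 1 in the IgG list on the x axis and in the PDCD4 list on the y axis (both log scales). The 175 red points have a share at least 2-fold higher in PDCD4 and the 256 blue points at least 2-fold higher in IgG, and the introns with the most cDNAs, such as ADARB2 and EGFR, lie between them.

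The same transcript could be read in both places. In 674 transcripts with at least 20 cDNAs in the first intron and at least 20 in the later introns together, the PDCD4 over IgG ratio of the first intron was below that of the later introns in 419 (62.2%), with a median difference of -0.39 (quartiles -1.25 and 0.41). In 14 transcripts the first intron was at least 2-fold lower and the later introns at least 2-fold higher in PDCD4, and in 6 the order was the opposite.

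Among first introns with at least 40 cDNAs, the 6 furthest towards PDCD4 were 4177 to 21231 nt long with 53.2% to 64.6% GC. Introns with fewer cDNAs reached larger ratios, 7 of them with 0 IgG cDNAs and at most 36 PDCD4 cDNAs. LAMA5, which encodes a laminin chain of the epithelial basement membrane, had 54 PDCD4 cDNAs and 3 IgG cDNAs in a first intron of 4396 nt with 64.6% GC (chr20:62362553-62366948, minus strand), a log2 ratio of 3.71 (2.25 to 5.17). In the later introns of LAMA5 the counts were 360 and 96, a ratio of 1.82 (1.50 to 2.15). ADCY7, an adenylyl cyclase, had 91 and 7 cDNAs (3.45, 2.41 to 4.49), and ALS2CL 44 and 3 (3.42, 1.94 to 4.90). The 3 IgG cDNAs of LAMA5 lay at 1 site, as did those of ALS2CL, and the 7 of ADCY7 at 3 sites. Intervals of single introns count each cDNA as independent, so they do not cover cDNAs that share a site.

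HSF1, the heat shock transcription factor, had 74 PDCD4 and 6 IgG cDNAs in its first intron and 0 in later introns of either list. CDK18, a cyclin-dependent kinase, had 52 and 4, also with 0 in later introns. CTBP1, a transcriptional corepressor, had 70 and 6 in the first intron (3.27, 2.15 to 4.39) and 71 and 57 in later introns (0.24, -0.26 to 0.74). All 19 PDCD4 sites of CTBP1 lay in the 5′ part of its first intron. The highest PDCD4 sites of 3 of these introns are shown as examples, LAMA5 (6 cDNAs, chr20:62365738-62365767, minus strand), ADCY7 (6 cDNAs, chr16:50276448-50276477, plus strand) and CDK18 (5 cDNAs, chr1:205519944-205519973, plus strand).
LAMA5: ggaaagcugcugacaCCUgcuuggagcccc
ADCY7: gggguggcucaguacACUgcuugcaucacc
CDK18: auggggaagcccuguUUUuagaaaggggug
Their windows held 63.3%, 60.0% and 50% GC, and the CDK18 site lies in a run of 5 uracils.

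The 6 at the other end, by the same limit, were 17217 to 100021 nt long with 36.8% to 56.5% GC, a range that overlaps that of the 6 on the PDCD4 side. EPS8, an actin-capping substrate of the EGF receptor, had 2 PDCD4 and 44 IgG cDNAs in a first intron of 75835 nt with 36.8% GC (-3.98, -5.66 to -2.29). Its 2 PDCD4 cDNAs lay at 1 site. The guanine nucleotide exchange factor ARHGEF10 had 4 and 36 (-2.96, -4.31 to -1.61), and all 11 of its IgG sites carried more than 1 gene label. CUX1, a homeobox transcription factor, had 10 and 68 in its first intron (-2.72, -3.64 to -1.80) but 76 and 48 in its later introns (0.58, 0.06 to 1.10). ZNF407, a zinc finger protein, had 12 and 76 (-2.64, -3.49 to -1.79), and SLC4A7, a bicarbonate transporter, 6 and 39 (-2.59, -3.75 to -1.43).

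In MYH9, which encodes the heavy chain of non-muscle myosin IIA, the first and the later introns lay on opposite sides. The first intron (chr22:36349256-36387806, minus strand, before the start codon) held 13 PDCD4 and 73 IgG cDNAs, a ratio of -2.47 (-3.30 to -1.65). The later introns held 147 and 78, a ratio of 0.83 (0.44 to 1.23). Per Mb the PDCD4 list had 105 sites in the first and 1141 in the later introns of MYH9, and the IgG list 811 and 614. The highest IgG site of EPS8 (5 cDNAs, chr12:15759650-15759679, minus strand) is shown as the example with the lowest GC content on this side.
EPS8: guauauuuuccaaaaUUUcucuuguuauug
This window held 23.3% GC, and the windows of other introns on the IgG side reached 63.3%, so low GC was not shared by these sites.

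GC content moved with the PDCD4 over IgG ratio across all introns. First introns that passed in the PDCD4 direction had a median GC content of 53.4% and a median length of 17031 nt, and those that passed in the IgG direction 41.2% and 44008.5 nt. By GC class, the log2 ratio of the lists' shares of deep sites in first introns was -0.61 (-0.68 to -0.54) at 36% to 40% GC, -0.16 (-0.23 to -0.09) at 44% to 48% and 0.61 (0.54 to 0.68) above 52%. In later introns of the same classes it was -0.36, 0.14 and 0.82. First introns lay below later introns of like GC content in each of the 6 classes, with intervals apart in 5 of them, the exception being introns under 36% GC (-0.52 against -0.41). First introns were on the whole richer in GC, with a median of 45.6% against 41.4%. The lower ratio of first introns was therefore also present within GC classes, and the part GC content itself has in the ratios was not tested. First introns are also longer, and the gap was not seen in every length class. At 10 to 20 kb there were 136 PDCD4 and 132 IgG sites per Mb in first introns, beside 90.9 and 91.0 in later introns. At 20 to 50 kb the values were 111 and 129, beside 72.4 and 81.2. Even placement in introns of 10 to 50 kb alone gave a difference between the lists of -0.11 (-0.17 to -0.04). The part of length was not tested.

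**Figure D5:**
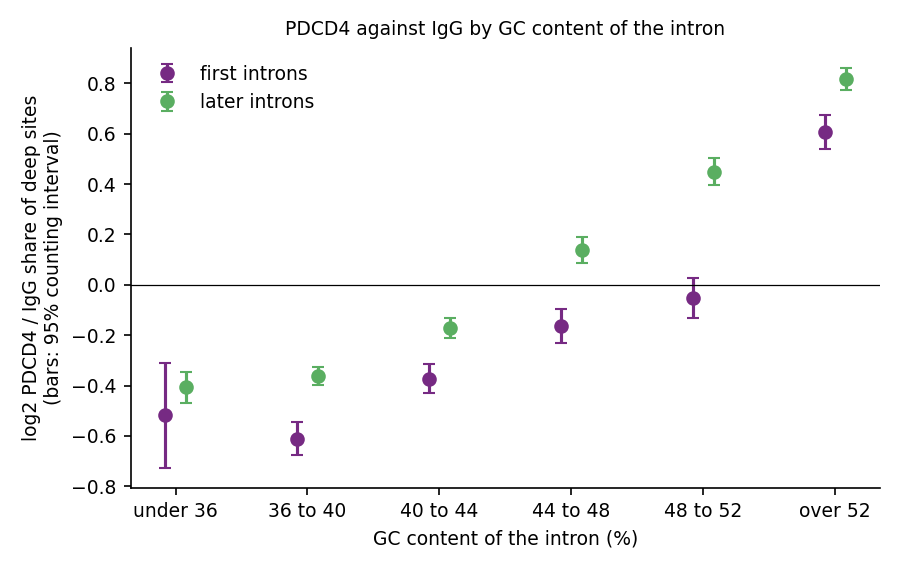
The log2 ratio of PDCD4 over IgG shares of deep sites (y axis) is plotted by GC content of the intron in % (x axis) for first and later introns, with 95% counting intervals. Both are negative under 36% GC (-0.52 and -0.41) and reach 0.61 in first and 0.82 in later introns above 52%, and first introns lie below later introns in every class.

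The lists of genes that relate to the cell type and to the study's theme were read in the same way. As background, 51.5% of first introns with deep positions in labelled genes held a member. Of the 1127 first introns tested, 15.5% passed in the PDCD4 and 22.7% in the IgG direction. Of 24 genes of basal epithelial and MCF10A identity, 15 had a member in their first intron and 5 reached 20 cDNAs. ITGB4, the integrin of hemidesmosomes, had 29 PDCD4 and 7 IgG cDNAs (1.83, 0.71 to 2.96) and was the 1 gene of this list that passed in the PDCD4 direction. The later introns of ITGB4 leaned the same way, with 219 and 47 (2.12, 1.67 to 2.57). ITGA6, the partner of ITGB4, had 50 and 25 (0.90, 0.22 to 1.58), and the hyaluronan receptor CD44 28 and 16 (0.70, -0.17 to 1.56). The median of the 5 was 0.70, beside -0.28 over all first introns tested. In the IgG direction 1 gene passed.

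Of 48 adhesion and cytoskeleton genes, 39 had a member in the first intron and 26 reached 20 cDNAs. Of the 26, 4 passed in the PDCD4 and 9 in the IgG direction, with a median ratio of -0.79. Over all first introns tested the values were 15.5%, 22.7% and -0.28. The 4 were LAMA5, ITGA3, the plexin PLXNB2 and the unconventional myosin MYO10, the last pair named after their values were seen. ITGA3, the integrin that binds laminin, had 88 PDCD4 and 40 IgG cDNAs in a first intron of 7431 nt (1.05, 0.51 to 1.58). In the later introns of ITGA3 the counts were 85 and 34 (1.23, 0.66 to 1.79). PLXNB2 had 95 and 26, and MYO10 24 and 5.

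MYH9, described above, was among the 9. The actin crosslinker ACTN1 had 65 and 109 (-0.81, -1.25 to -0.37), with -0.79 in its later introns. The focal adhesion scaffold PXN had 68 and 77 (-0.25, -0.72 to 0.22).

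In the signalling list, 17 of 24 genes had a member and 7 reached 20 cDNAs. Of the 7, 0 passed in the PDCD4 and 1 in the IgG direction, with a median of -0.13. Over all first introns tested 15.5% and 22.7% passed. SMAD3, a mediator of TGF-beta signals, had 64 PDCD4 and 84 IgG cDNAs, its receptor TGFBR2 24 and 22, and the kinase gene MAP2K1 27 and 17.

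Splicing and hnRNP factors, 33 genes of which 20 had a member and 5 reached 20 cDNAs, had a median of 0.02. The splicing activator gene TRA2A had 30 PDCD4 and 28 IgG cDNAs in a first intron of 9948 nt and 0 in later introns. CELF1 had 29 and 43, RBFOX2 36 and 20, and PTBP3 12 and 19. SRSF11, with 19 and 3, was the 1 gene that passed in the PDCD4 direction and was named after its values were seen. In that direction 15.5% of all first introns tested passed.

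Among 26 chromatin and transcription regulators 19 had a member and 9 reached 20 cDNAs, again with a median of 0.02. ZMIZ1, a transcriptional coactivator, was the 1 that passed, where 15.5% of all first introns tested passed in the PDCD4 direction. It had 70 PDCD4 and 12 IgG cDNAs in its first intron (2.38, 1.52 to 3.23) and 213 and 85 in its later introns (1.24, 0.88 to 1.60). EHMT1, a histone methyltransferase, had 73 and 64.

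Of 11 translation partners of PDCD4, 7 had a member but 1 reached 20 cDNAs. This was EIF4G3, a scaffold of translation initiation, with 48 PDCD4 and 42 IgG cDNAs in a first intron of 86961 nt (0.12, -0.47 to 0.71). EIF4E, the cap-binding protein, had 2 and 12, EIF4B 0 and 12, and PABPC1, the poly(A)-binding protein, 7 and 6. The PDCD4 gene itself had 3 PDCD4 cDNAs and 0 IgG cDNAs in its first intron.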

How the data were processed

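iCLIP sites of MCF10A cells were analysed (2 PDCD4 and 2 IgG replicates per the labels). The authors processed reads with iCount against the Ensembl release 88 genome. Aligner and iCount settings are not given in the sources used here. The methods describe that sites seen with IgG were subtracted from PDCD4 ahead of peak calling, that replicates were merged, and that a filter was set on scores greater than 5 that the deposited lists do not show. The deposited score counts cDNAs at a 1-nt position (a count, not normalized), summed over replicates, with 409308 cDNAs for PDCD4 and 276139 for IgG. No correction for RNA abundance was made.

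Sites were placed on GENCODE release 44, on the same build, which knew 14266 of the 14416 gene identifiers in the labels of the lists. Where a site carried several gene labels (377 PDCD4 and 436 IgG members), a first intron took precedence. Even placement kept each transcript's number of sites and spread them over its deep positions in no exon. Shares have Wilson intervals, and log2 ratios of counts have 95% intervals from counting error. Per-intron ratios used shares of deep intronic cDNAs, a pseudocount of 1 and a minimum of 20 cDNAs. Their intervals count each cDNA as independent. Each list pools its replicates, so no test was run. Python 3.11.15, numpy 2.4.6, pandas 2.3.3 and matplotlib 3.10.9 were used, and the scripts were tested on simulated data.

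The sites and gene lists were chosen with earlier results of these data known. Genes named are the 8 first introns with the most cDNAs in each list, the 6 largest and 6 smallest ratios from 40 cDNAs, the 6 highest sites of each list, and up to 4 members of each gene list with the most cDNAs. Not every gene this rule gives is described, and some items are not reported here. Alternatives changed the score threshold, the margin, the transcript, the exons left out, the gene labels, merging, the transcripts compared, the pseudocount and the totals.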

Additional observations from a re-analysis of the deposited data

Results flagged for a closer look

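The lists lay on opposite sides of even placement within transcripts when all later introns were compared. PDCD4 members were fewer in first introns than even placement gives (log2 ratio -0.04), and IgG members more numerous (0.12), a difference of -0.16. With 1 pooled list per group this difference was not tested. The opposite signs depended on what was compared. Both values were positive against second introns (0.020 and 0.031), over transcripts with a member (0.12 and 0.24) and at 40% to 48% GC (0.030 and 0.14). Above 48% GC both were negative (-0.14 and -0.023). In introns of 10 to 50 kb alone the PDCD4 value was -0.01 (-0.05 to 0.04).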

How the results depend on the processing

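No paired analysis was possible because the deposited lists merge the replicates that share numbers in the labels, and for the same reason no replicate could be left out. Positions outside repeats could not be taken alone, because the genome used does not mark repeats. Of 14 alternatives, 9 kept the PDCD4 density ratio within its interval. It was -0.19 at scores greater than 5 (103 sites), 0.12 over transcripts with a member, 0.020 against second introns, 0.030 in introns of 40% to 48% GC and -0.14 above 48% GC. The 2 GC settings were chosen after seeing the data. For IgG the same settings gave 0.0098, 0.24, 0.031 and 0.14, and -0.023 above 48% GC. The difference between the lists kept its sign in all 14, at -0.20 (-0.61 to 0.21), -0.12, -0.010, -0.11 and -0.12, and at -0.13 with a margin of 500 nt. The excess in the 5′ part of first introns kept its sign in all 13. It was 0.43 (-0.13 to 0.98) at scores greater than 5, 0.68 at 40% to 48% GC and 0.26 above 48% for PDCD4, and 0.55 (-0.03 to 1.14), 0.71 and 0.40 for IgG. The difference of these was -0.033 (-0.12 to 0.06) at 40% to 48% GC. At scores greater than 10, 0.00556% of PDCD4 and 0% of IgG members passed (0 of 19275). First introns passing in the PDCD4 and IgG directions numbered 79 and 82 from 40 cDNAs (15.96% and 16.57%, beside 17.96% and 16.62% of later introns). They numbered 98 and 463 with shares of all listed cDNAs. By numbers of sites they were 53 and 52 (13.98% and 13.72%, beside 15.3% and 16.3% of later introns). With shares of all listed cDNAs 8.70% of first and 14.3% of later introns passed in the PDCD4 direction and 41.1% and 36.3% in the IgG direction, so first introns stayed below later introns for PDCD4. The cause of these shifts was not tested. Most scores are 2 or 3 cDNAs, so single introns rest on few molecules.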
